A study of Mus musculus with 6 samples.

Results

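The comparison described here sets MAR1INT, a bone marrow population with an intermediate level of the IgE receptor, against BaP, the population that the labels call the basophil precursor. It was taken from the gates and not from measured values, and it uses 4 of the 6 libraries of the series, 2 biological duplicates of each population. Of 24532 genes listed, the 10991 with a TPM of at least 1 in 2 or more of the 4 libraries were tested, where TPM is a gene's share of the transcripts, scaled to the same total in every library. Both populations were sorted from bone marrow of C57BL/6J mice, and RNA was sequenced after enrichment by capture probes. BaP cells were lineage-negative, CD34+, c-Kit-negative and MAR1+. MAR1INT cells were lineage-negative, CD34-negative, c-Kit-negative, CD200R3+ and MAR1-intermediate. The antibody MAR1 binds the FceRI alpha chain, so both gates select cells that carry the IgE receptor. Age and sex, the number of mice behind a library, and the markers in the lineage cocktail are not given in the sources used here.

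Basophils are rare granulocytes that are made in the bone marrow and released into blood as cells that no longer divide. They carry IgE on a receptor built from an alpha chain (Fcer1a), a beta chain (Ms4a2) and a gamma chain (Fcer1g). Binding of antigen to that IgE starts a kinase cascade that releases histamine and proteases from granules, and makes lipid mediators, chemokines and cytokines such as interleukin 4. Interleukin 3, acting through a receptor made of Il3ra and the common beta chain Csf2rb and signalling through JAK2 and STAT5, drives their growth, and GATA2 and C/EBP alpha are transcription factors of the lineage.

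The libraries were of like depth, with 4.75 to 4.90 gigabases of aligned sequence implied by the deposited values. At that depth 10983 and 11544 genes reached 1 TPM in the BaP libraries (replicates 1 and 2), against 9604 and 9705 in MAR1INT. The duplicates differed more in MAR1INT, where the root mean square SD over tested genes was 0.67 on the log2(TPM + 1) scale, against 0.40 in BaP. Basophil genes were abundant in all 4 libraries. Mcpt8, a protease gene restricted to basophils, stood at 4978 and 6412 TPM in BaP and 2745 and 2161 in MAR1INT. Ms4a2 stood at 529 and 534 TPM in BaP and 643 and 540.1 in MAR1INT, and the factor Gata2 at 269 and 348 TPM in BaP and 675 and 602 in MAR1INT. Of 13 mast cell markers, 6 stayed under 1 TPM in all 4 libraries, 3 of them listed at 0 throughout. The 3 that were tested, Kit, Cpa3 and Gata2, are also genes of basophils or their progenitors. Apart from histone and small noncoding RNA genes, the most abundant transcripts of BaP were Rpl23a, an entry without a symbol, Rps12, the basophil protease Prss34 and Rps23. Those of MAR1INT were Rpl23a, Rps23, the same entry, Rps24 and Lilr4b, a surface receptor. Since the labels do not say whether the duplicates came from different mice, p-values measure only the spread between these libraries.

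Transcripts of the genes behind the gates were read first, as a check of the labels. Cd34 (chr1:194938821-194961292 of mm10, the build of all coordinates given for genes) stood at 52.6 and 44.1 TPM in BaP and at 0.134 and 0 in MAR1INT. Its difference, on the log2(TPM + 1) scale used for all changes, was -5.53 (standard error 0.35, adjusted p = 0.00413 in limma). Adjusted p-values below are limma's over all tested genes, with 0.05 as the threshold for a call. Kit (chr5:75574987-75656721), a receptor tyrosine kinase of progenitors, had 44.9 and 38.6 TPM in BaP and 0.0446 and 0.449 in MAR1INT (log2 change -5.11, adjusted p = 0.00413), although both gates left out cells with c-Kit protein. Cd200r3 (chr16:44943678-44981380), which only the MAR1INT gate required, was higher in MAR1INT, with 821 and 845 TPM in BaP and 2696 and 2342 in MAR1INT (log2 change 1.59, adjusted p = 0.00443). Fcer1a (chr1:173221271-173227229), which encodes the chain that MAR1 binds, was lower in MAR1INT, with 776 and 892 against 534 and 422 TPM (log2 change -0.81, adjusted p = 0.0264). The libraries of the groups did not overlap for any of these genes. With either BaP library left out only Cd34 of the 4 stayed past the threshold. The Fcer1a call was also lost without MAR1INT replicate 2, with no filter on low genes and with no trend in the variance.

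MAR1INT libraries held more transcript of receptors, chemokines and adhesion molecules than BaP libraries, and less of the genes of DNA replication, mitosis, ribosome assembly and protein folding in the endoplasmic reticulum. Over all genes tested, 3325 (30.3%) passed an adjusted p of 0.05 in limma, and 4817 had an unadjusted p under 0.05. Of the genes called, 1333 were higher in MAR1INT (12.1% of genes tested) and 1992 were lower (18.1%). Against those shares, 46 of 50 genes of DNA replication and 57 of 60 of mitosis were lower, while 19 of 31 chemokine receptor and adhesion genes and 9 of 15 cytokine genes were higher. In every called gene the 2 groups' libraries did not overlap, which was also the case for 69.5% of all tested genes. A statement of no overlap for a called gene therefore adds nothing to its call. The genes that were higher had a median change of 1.28 and were mostly well expressed, with a median of 82.2 TPM in MAR1INT. The genes that were lower had a median change of -1.92 and a median of 19.6 TPM in BaP, and 462 of them were listed at 0 in both MAR1INT libraries. Among genes with a mean of 100 TPM or more, 410 were called higher and 265 lower of 1288, while under 5 TPM the calls were 61 higher and 687 lower of 2372. A gene listed at 0 in both libraries of a group passed the filter only through the other group, so the filter fixed its direction. That held for 476 tested genes at 0 in MAR1INT and 9 at 0 in BaP. Such a pair of zeros also shows no spread, which makes a call easier. The split among low genes is therefore in part set by the filter. In bulk RNA, fewer cells of a type and less RNA per cell cannot be told apart, and TPM gives shares of a library, not amounts per cell.

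The share of called genes that were higher depended on the scaling. It was 40.1% with TPM, 28.0% with FPKM (fragments per kilobase, scaled to the library's size) and 53.0% after quantile normalization. The median change of all tested genes, to which each list median below can be compared, was -0.15 with TPM, -0.33 with FPKM and 0.11 after quantile normalization. No gene called with TPM was called in the opposite direction with FPKM or after quantile normalization. After quantile normalization 52 genes called with TPM changed sign without being called. The number of calls depended most on the BaP pair. Without BaP replicate 1 only 660 genes were called (90 higher, 570 lower) and without BaP replicate 2 only 650 (82 and 568), since the spread is then estimated from the MAR1INT pair alone and the lone BaP library is assumed to vary like it. Without MAR1INT replicate 1 or 2, 4190 and 4615 genes were called.

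Exact zeros were common in MAR1INT. Of the tested genes, 991 and 789 were listed at 0 in the MAR1INT libraries and 476 in both, against 50, 49 and 9 in BaP. In 78 genes 1 MAR1INT library was listed at 0 and the other at 10 TPM or more, which occurred for 4 genes in BaP. A listed 0 can be a failed estimate of a transcript's level, and genes that most cells use were among them, such as Slirp, an RNA-binding protein of mitochondria, and Ppa1, a pyrophosphatase. For genes at 0 in a whole group, library values are therefore given without a fold, and their fitted log2 change depends on the value of 1 added before the logarithm.

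**Figure D1:**
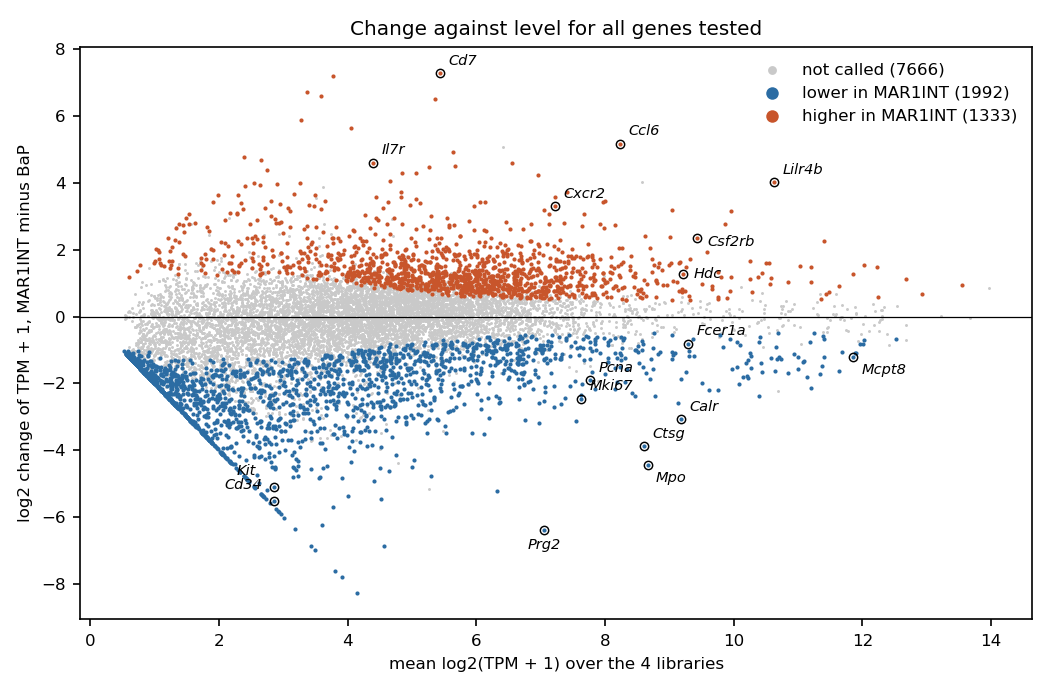
Change (MAR1INT minus BaP, log2 of TPM + 1) against the mean log2(TPM + 1) over the 4 libraries for each of the 10991 genes tested. Orange points are the 1333 genes called higher in MAR1INT, blue points the 1992 called lower, grey points the 7666 not called, and circles mark named genes. The sloping lower edge at left holds genes listed at or near 0 in MAR1INT.

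The largest rises included genes of receptors, chemokines and adhesion. Cd7 (chr11:121036749-121039478), an immunoglobulin-family surface protein best known on lymphoid cells, stood at 1.44 and 3.94 TPM in BaP and 569 and 518 in MAR1INT (log2 change 7.29, SE 0.37, adjusted p = 0.00389). Defb40, a beta-defensin gene, reached 135 and 80.98 TPM in MAR1INT, and its BaP values were 0 and 0. Slc6a4, the serotonin transporter, stood at 2.82 and 0.444 TPM in BaP and 111 and 121 in MAR1INT (log2 change 5.64, adjusted p = 0.00460). All 3 were near the floor in BaP and well expressed in MAR1INT. Ccl6, a chemokine gene, had 49.4 and 48.4 TPM in BaP and 1885 and 1736 in MAR1INT (log2 change 5.18, adjusted p = 0.00186). Its interval overlaps that of another entry, E230016K23Rik, so its level is uncertain. Evi2b, a membrane protein gene that lies within Nf1, stood at 10.9 and 5.85 TPM in BaP and 295 and 251 in MAR1INT (log2 change 4.92, adjusted p = 0.00413). The metalloprotease Adam8 stood at 6.56 and 14.1 TPM in BaP and 261 and 221 in MAR1INT (log2 change 4.50, adjusted p = 0.00415). Evi2b and Adam8 lay below Ccl6 in all 4 libraries. Skap1, a T cell signalling adaptor, stood at 9.85 and 4.29 TPM in BaP and 158 and 138 in MAR1INT (log2 change 4.30, adjusted p = 0.00455). L1cam, an adhesion molecule of the immunoglobulin family, stood at 4.45 and 5.99 TPM in BaP and 105 and 100.3 in MAR1INT (log2 change 4.07, adjusted p = 0.00413). The others of the 15 largest rises were Wdr95 (log2 change 5.88), the stress-activated kinase Mapk12 (log2 change 4.68), the acid nuclease Dnase2b (log2 change 4.40), Il7r, C3ar1, Ccr3 and Ccl4. Libraries that do not overlap between the groups were a condition for choosing the 15, and not all of them were still called with a BaP library left out.

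C3ar1 encodes the receptor for the complement fragment C3a, which activates basophils and mast cells. It stood at 6.23 and 8.14 TPM in BaP and 193 and 168 in MAR1INT (log2 change 4.48, SE 0.22, adjusted p = 0.00389), with no overlap between the groups. Its promoter is printed because, among those of the 12 largest rises that were considered, it held the most matches to the 9 motifs searched. Promoters that start over 100 bases from the deposited gene end, and those of a chromosome left aside, were not considered for printing. Promoters here are the 300 bases from 250 before to 50 after the start of the gene (RefSeq, GRCm38.p6), and the capitals in the C3ar1 sequence mark AGATAA or its reverse complement (GATA factors) and TGACTCA (AP-1). It lies at chr6:122856108-122856407 on the minus strand and is written 5′ to 3′ in the direction of the gene.
C3ar1: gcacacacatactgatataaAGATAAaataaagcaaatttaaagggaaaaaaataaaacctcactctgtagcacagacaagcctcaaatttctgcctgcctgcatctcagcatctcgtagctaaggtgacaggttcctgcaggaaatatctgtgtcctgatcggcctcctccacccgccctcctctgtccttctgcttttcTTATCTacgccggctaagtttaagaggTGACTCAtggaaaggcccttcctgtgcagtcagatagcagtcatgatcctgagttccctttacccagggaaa
The GATA motif AGATAA occurred in 6.49% of the 8627 promoters of tested genes, in 5.22% of those of genes called higher and in 25.8% of the 31 promoters of the surface receptor genes described below. The AP-1 motif (TGACTCA or TGAGTCA) occurred in 3.15% of all and 3.74% of the genes called higher. These are counts of letters on both strands. Surface receptor promoters were also poorer in CpG, with a median of 4 in 300 bases against 21 over all genes.

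Of the 15 largest falls, most were genes listed at 0 in both MAR1INT libraries. Slirp stood at 247 and 152 TPM in BaP, and 5730408K05Rik, which shares its interval with Lbhd1, at 370.2 and 258. Wfdc21, a secreted protein of the whey acidic family, stood at 66.6 and 99.8 TPM in BaP. Cox6b2, a respiratory chain subunit gene best known from testis, stood at 69.6 and 58.8, Bcl2a1b at 52.1 and 35.7 and Ppa1 at 49.3 and 34.04. All of these were at 0 in MAR1INT. The class I gene H2-Q6 was listed at 91.9 and 169 TPM in BaP and at 0 in MAR1INT, while H2-Q8, whose interval it shares, stood at 3.85 and 5.49 TPM in BaP and 22.4 and 21.7 in MAR1INT. H2-Q9 was listed at 92.7 and 144 TPM in BaP and at 0 in MAR1INT, while H2-Q7, which overlaps it, stood at 17.2 and 51.3 TPM in BaP and 98.6 and 57.99 in MAR1INT. Within both pairs 1 entry was lower while the other pointed up, so the level of each single H2-Q gene is uncertain. The eosinophil ribonuclease Ear1, of a family of near-identical genes, stood at 259.5 and 86.7 TPM in BaP and 0 and 10.99 in MAR1INT (log2 change -5.45, adjusted p = 0.0319). Prg2, Prg3, Epx, H2-Aa, Cd34 and Birc5 made up the rest of the 15 and are described with their groups. Of the 15, 11 were still called without BaP replicate 1 and 11 without replicate 2.

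Of 39 tested surface receptor genes of basophils, 17 were higher in MAR1INT and 5 lower, with a median change of 0.62. The cytokine receptors were led by Il7r, the interleukin 7 receptor chain, at 1.98 and 5.11 TPM in BaP and 96.5 and 110.3 in MAR1INT (log2 change 4.61, adjusted p = 0.00443). Il18r1 and Il18rap, the 2 chains of the interleukin 18 receptor, were both higher. Il18r1 stood at 50.7 and 35.2 TPM in BaP and 499 and 537 in MAR1INT (log2 change 3.58, adjusted p = 0.00399). Il18rap stood at 148 and 141 TPM in BaP and 668 and 553 in MAR1INT (log2 change 2.07, adjusted p = 0.00413). Neither chain's libraries overlapped between the groups. Csf2rb, the beta chain shared by the interleukin 3, interleukin 5 and GM-CSF receptors, stood at 264 and 350.2 TPM in BaP and 1584 and 1527 in MAR1INT (log2 change 2.35, adjusted p = 0.00413). Its near-identical copy Csf2rb2 stood at 99.01 and 120.5 TPM in BaP and 751 and 717 in MAR1INT (log2 change 2.74), and the split between the copies is uncertain. Il3ra, the interleukin 3 alpha chain, was not called (95.9 and 93.1 TPM in BaP and 137 and 110.2 in MAR1INT, adjusted p = 0.159), nor was Il1rl1, the interleukin 33 receptor (145 and 134 TPM in BaP and 165 and 168 in MAR1INT, adjusted p = 0.214).

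Among inhibitory and paired receptors the largest difference in level was that of Lilr4b (chr10:51480612-51486329), at 364 and 417 TPM in BaP and 6808 and 5999 in MAR1INT (log2 change 4.03, adjusted p = 0.00288). Its near-identical neighbour Lilrb4a stood at 312 and 347 TPM in BaP and 3129.9 and 2826 in MAR1INT (log2 change 3.17). Reads could be split between these copies, and both were higher. The CD200 receptor family members Cd200r1 (log2 change 1.41) and Cd200r4 (log2 change 1.91) were higher, and so was Cd200r3, which only the MAR1INT gate required. Hrh4, the histamine receptor of leukocytes, stood at 51.9 and 53.9 TPM in BaP and 344 and 386 in MAR1INT (log2 change 2.76, adjusted p = 0.00389). The prostaglandin E2 receptor Ptger3 stood at 18.7 and 17.5 TPM in BaP and 38.6 and 45.5 in MAR1INT (log2 change 1.17, adjusted p = 0.0197). Siglecf, a sialic acid receptor known from eosinophils, stood at 21.9 and 20.9 TPM in BaP and 79.5 and 109.8 in MAR1INT (log2 change 2.08, adjusted p = 0.00597). These receptor genes had no overlap between the groups. The low-affinity IgG receptor genes Fcgr2b (adjusted p = 0.106) and Fcgr3 (adjusted p = 0.143) were not called, nor was the degranulation marker Cd63, at 2276 and 2149 TPM in BaP and 2453 and 2852 in MAR1INT. The members that were lower were the IgG receptor Fcgr4 (log2 change -3.92), the lectin receptor Clec12a (417 and 367 against 47.03 and 85.1 TPM, log2 change -2.61, adjusted p = 0.00658), Cd24a (log2 change -2.55), Thy1 (log2 change -2.06) and the interleukin 6 receptor Il6ra (log2 change -1.83). The list held 10 higher and 0 lower members without BaP replicate 1, and 11 and 0 without replicate 2.

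The IgE receptor itself and its signalling genes were read as a second list. Of 29 tested members 12 were higher, and Fcer1a alone was lower, with a list median of 0.53. Of the other chains, neither Ms4a2 (adjusted p = 0.472) nor Fcer1g (710.5 and 644 against 900 and 842 TPM, adjusted p = 0.0971) was called. The kinases next to the receptor were higher. Fyn stood at 67.1 and 68.7 TPM in BaP and 175 and 157 in MAR1INT (log2 change 1.27, adjusted p = 0.00684). Syk stood at 40.8 and 44.7 TPM in BaP and 80.4 and 76.5 in MAR1INT (log2 change 0.86, adjusted p = 0.0212). Lyn, which starts the cascade, stood at 69.5 and 80.4 TPM in BaP and 116 and 134 in MAR1INT (log2 change 0.73, adjusted p = 0.0329). For these 3 kinases the groups did not overlap. The Tec family kinase Btk (66.4 and 72.3 against 208 and 172 TPM, log2 change 1.44, adjusted p = 0.00682) was higher as well. The adaptors Gab2 (30.5 and 36.1 against 115 and 127 TPM, log2 change 1.83, adjusted p = 0.00519), Lat2 (log2 change 1.25) and Lcp2 (log2 change 1.06) were higher, while Lat and Grb2 were not called. Phospholipase Plcg1 (log2 change 1.07), the calcium channel Itpr2 (log2 change 1.43) and protein kinase C delta, Prkcd (83.9 and 111 against 286 and 244, log2 change 1.44, adjusted p = 0.00875), were higher too. So was the lipid phosphatase Inpp5d (log2 change 0.86), which limits this pathway. No member of this list was called without BaP replicate 1 or without replicate 2, and the call of Lyn was lost in 9 of 16 alternatives, FPKM and quantile normalization among them.

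Of the 31 tested chemokine receptor, adhesion and egress genes 19 were higher and 5 lower, with a median change of 1.27. Ccr3, the eotaxin receptor, stood at 5.61 and 5.30 TPM in BaP and 131 and 120.4 in MAR1INT (log2 change 4.30, adjusted p = 0.00389). Cxcr2, a receptor of neutrophil-attracting chemokines, stood at 38.8 and 56.2 TPM in BaP and 503 and 441 in MAR1INT (log2 change 3.31, adjusted p = 0.00413). Ccr2, the receptor of Ccl2, stood at 85.2 and 56.2 TPM in BaP and 618 and 565 in MAR1INT (log2 change 3.08, adjusted p = 0.00413). For these 3 receptors the groups did not overlap. Cxcr4, which binds the marrow chemokine Cxcl12 and holds cells in the marrow, stood at 414 and 519 TPM in BaP and 143 and 135 in MAR1INT and was lower (log2 change -1.73, adjusted p = 0.00485). The integrin genes went both ways. Itgb3 (3.55 and 7.69 against 66.4 and 83.9 TPM, log2 change 3.59), Itga2 (log2 change 2.60), Itgb1 (log2 change 1.78) and Itgb7 (log2 change 1.74) were higher, and Itga4, the partner of Itgb1 in adhesion to Vcam1, was lower (81.9 and 74.5 against 23.6 and 21.4 TPM, log2 change -1.75, adjusted p = 0.00584). The sphingosine 1-phosphate receptors S1pr1 (10.7 and 14.9 against 45.7 and 29.96 TPM, log2 change 1.48, adjusted p = 0.0289) and S1pr4 (log2 change 1.53), which guide exit from tissue, were higher. Klf2, a factor that drives S1pr1 in lymphocytes, stood at 2.27 and 3.92 TPM in BaP and 8.64 and 8.73 in MAR1INT and was not called (adjusted p = 0.0631). The counts were 7 higher and 1 lower without BaP replicate 1 and 6 and 0 without replicate 2.

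Of 15 tested cytokine and chemokine genes 9 were higher and 3 lower, with a median of 1.79. The chemokines that were higher were Ccl6, Ccl9, Ccl3 and Ccl4. Ccl9, a CC chemokine of myeloid cells, stood at 88.7 and 65.3 TPM in BaP and 898 and 788 in MAR1INT (log2 change 3.45, adjusted p = 0.00389). Ccl3 stood at 144 and 212 TPM in BaP and 1544 and 1651 in MAR1INT (log2 change 3.19, adjusted p = 0.00413). Ccl4, a chemokine closely related to Ccl3, stood at 16.3 and 46.8 TPM in BaP and 497 and 585 in MAR1INT (log2 change 4.23, adjusted p = 0.00653), and its BaP libraries differed more from each other than those of Ccl3 or Ccl9. Osm (oncostatin M) stood at 12.4 and 19.8 TPM in BaP and 111 and 149.5 in MAR1INT (log2 change 2.96, adjusted p = 0.00522). Hgf, the hepatocyte growth factor gene, had 420.2 and 363 TPM in BaP and 1577 and 1426 in MAR1INT (log2 change 1.94, adjusted p = 0.00413). Il4, the type 2 cytokine made by basophils, stood at 31.99 and 41.2 TPM in BaP and 104 and 143 in MAR1INT (log2 change 1.72, adjusted p = 0.00961). Il6 stood at 115 and 109 TPM in BaP and 397 and 383 in MAR1INT (log2 change 1.79, adjusted p = 0.00413). Transcripts of these 4 mediators were present in BaP and higher in both MAR1INT libraries. Csf1 was the other member called higher (log2 change 1.80, adjusted p = 0.00458). The members that were lower, Ccl5 (9.68 and 7.55 TPM in BaP), Il1b (3.24 and 5.82) and Cxcl10 (3.94 and 1.73), were low in BaP and listed at 0 in both MAR1INT libraries, and the calls of Il1b and Cxcl10 were lost after quantile normalization, that of Cxcl10 also with no filter on low genes. Leaving out BaP replicate 1 gave 6 higher and 3 lower, and leaving out replicate 2 gave 6 and 3.

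The granule and mediator genes went both ways. Of 14 tested members of the granule and effector list 3 were higher and 6 lower, with a median of -0.69. Of the lower members, Prg2, Ctsg and Lyz2 (log2 change -6.39, -3.87 and -2.16) are also counted below as markers of eosinophils, neutrophils and monocytes. Of the higher members, Alox15 is also counted as a marker of eosinophils. Genes of mediator synthesis went both ways, and the higher ones are given first. Hdc, which makes histamine, stood at 351 and 407 TPM in BaP and 902 and 945 in MAR1INT (log2 change 1.29, adjusted p = 0.00585). Alox15, a lipoxygenase, stood at 122 and 146 TPM in BaP and 454 and 427 in MAR1INT (log2 change 1.72, adjusted p = 0.00443). Alox5ap, which presents arachidonic acid for leukotriene synthesis, stood at 889 and 882 TPM in BaP and 2022 and 2017 in MAR1INT (log2 change 1.19, adjusted p = 0.00544). For these 3 genes the duplicates lay close together and the groups apart. The granule proteases were lower or not called. Mcpt8 was lower (log2 change -1.21, adjusted p = 0.0153). Cpa3, a carboxypeptidase shared with mast cells, stood at 3284 and 3835 TPM in BaP and 1448 and 981 in MAR1INT (log2 change -1.57, adjusted p = 0.0105). Ctsg, cathepsin G, stood at 1508 and 1475 TPM in BaP and 105 and 96.5 in MAR1INT (log2 change -3.87, adjusted p = 0.00288), the largest fall among the proteases named. Prss34 stood at 6085 and 8679 TPM in BaP and 4615 and 3588 in MAR1INT (log2 change -0.84, adjusted p = 0.0573) and was called lower in 7 of 16 alternatives, FPKM and TPM without histone genes among them. Srgn, the proteoglycan core of granules, and the amine transporter Slc18a2 were not called (adjusted p = 0.0955 and 0.168). The granule list held 1 higher and 1 lower without BaP replicate 1, and 2 and 1 without replicate 2.

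**Figure D2:**
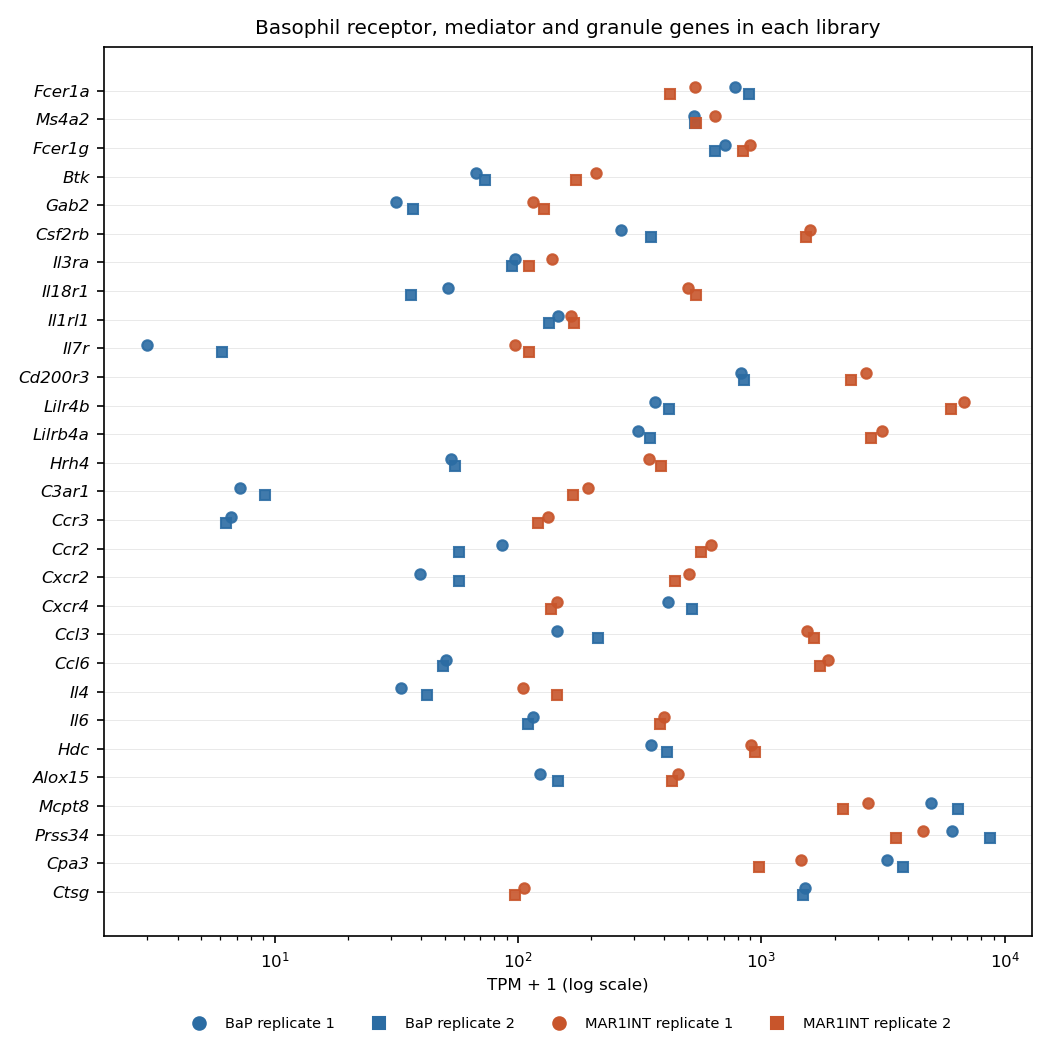
TPM + 1 on a log axis for receptor, signalling, mediator and granule genes in each of the 4 libraries (circles replicate 1, squares replicate 2, blue BaP, orange MAR1INT). Most receptor and chemokine genes sit to the right in MAR1INT, such as Lilr4b at 6808 and 5999 TPM, while Fcer1a, Cxcr4 and the proteases at the bottom sit to the left.

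In the machinery that moves and fuses granules 10 of 31 tested genes were higher and 2 lower, with a median of 0.49. Sytl3 and Sytl2, synaptotagmin-like proteins that bind RAB27, were both higher. Sytl3 stood at 41.2 and 50.7 TPM in BaP and 612 and 638 in MAR1INT (log2 change 3.74, adjusted p = 0.00389). Sytl2 stood at 8.30 and 5.04 TPM in BaP and 76.7 and 83.8 in MAR1INT (log2 change 3.44, adjusted p = 0.00443). Lyst, whose loss gives giant granules, stood at 91.00 and 109 TPM in BaP and 658 and 618 in MAR1INT (log2 change 2.66, adjusted p = 0.00390). Rab27a itself (log2 change 0.90, adjusted p = 0.0171), the priming factor Unc13d (log2 change 1.01, adjusted p = 0.0187) and Stxbp2, a syntaxin-binding protein (log2 change 0.74, adjusted p = 0.0155), differed by less. Rab38, a small GTPase of lysosome-related organelles, was lower, at 18.99 and 26.9 TPM in BaP and 0 and 0.457 in MAR1INT (log2 change -4.29, adjusted p = 0.00493). In eicosanoid synthesis 2 of 11 were higher and 4 lower. Tbxas1, the thromboxane synthase, stood at 70.2 and 71.6 TPM in BaP and 19.05 and 17.4 in MAR1INT (log2 change -1.90, adjusted p = 0.00522). Lta4h, which makes leukotriene B4, and the cyclooxygenase Ptgs1 were lower too (log2 change -0.73 and -2.15, adjusted p = 0.0350 and 0.0255). Alox5, the enzyme that Alox5ap serves, was not called (adjusted p = 0.438). In fits without BaP replicate 1 or 2 the exocytosis genes numbered 3 and 3 higher, and the eicosanoid genes 1 and 1 lower.

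Genes downstream of cytokine receptors were higher where they were called. Of 23 tested JAK-STAT5 genes 7 were higher and 0 lower, with a median of 0.50. Jak2, the kinase bound to the common beta chain, stood at 232 and 231 TPM in BaP and 785 and 763 in MAR1INT (log2 change 1.73, adjusted p = 0.00413). Pim1, a kinase gene driven by STAT5, stood at 44.00 and 51.7 TPM in BaP and 178 and 176 in MAR1INT (log2 change 1.87, adjusted p = 0.00443). Stat5b was higher (log2 change 1.08, adjusted p = 0.0170) and Stat5a was not called (adjusted p = 0.124). The list held 2 calls without BaP replicate 1 and 2 without replicate 2.

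Of 21 tested immediate early genes, which respond to stimulation within minutes, 12 were higher and 1 lower, with a median of 1.35. Zfp36, which destabilizes cytokine mRNAs, stood at 12.3 and 29.7 TPM in BaP and 209 and 226 in MAR1INT (log2 change 3.44, adjusted p = 0.00714). Junb, a subunit of AP-1, stood at 6.41 and 10.8 TPM in BaP and 61.8 and 64.7 in MAR1INT (log2 change 2.78, adjusted p = 0.00609). The duplicates of BaP differed in this group, with Zfp36, Fos and Egr1 higher in replicate 2 than in replicate 1. Fos stood at 5.57 and 36.6 TPM in BaP and 4.55 and 9.95 in MAR1INT and was not called (adjusted p = 0.440). Egr1 stood at 1.22 and 9.79 TPM in BaP and 2.92 and 5.22 in MAR1INT and was not called either (adjusted p = 0.991). Among NF-kappaB genes 7 of 27 were higher (25.9%) and 4 lower (14.8%), against 12.1% and 18.1% of all tested genes. The higher ones included Birc3, an inhibitor of cell death (20.3 and 27.3 against 82.1 and 58.4 TPM, log2 change 1.51), and the subunit Rela. The lower ones were Bcl2a1b, Cd40, Cd83 and Ikbke, of which the first 3 were listed at 0 in MAR1INT, and the calls of Cd40, Cd83 and Ikbke were lost in 4, 2 and 6 of 14 alternatives. Of 33 interferon-stimulated genes 8 were higher (24.2%) and 5 lower (15.2%), the lower share again under that over all tested genes. Ifitm1, a membrane protein that blocks virus entry, stood at 1282 and 1190.4 TPM in BaP and 5694 and 6254 in MAR1INT (log2 change 2.27, adjusted p = 0.00413). Oas1a, which senses double-stranded RNA, stood at 17.99 and 16.1 TPM in BaP and 4.22 and 3.45 in MAR1INT (log2 change -1.90, adjusted p = 0.0158). In fits lacking BaP replicate 1 or 2 the immediate early genes called higher numbered 1 and 2, and no NF-kappaB or interferon-stimulated gene was called higher.

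Of 46 tested lineage transcription factors 15 were higher and 4 lower, with a median of 0.41. Nfil3, a factor of innate lymphoid and myeloid cells, stood at 17.7 and 18.3 TPM in BaP and 129 and 111 in MAR1INT (log2 change 2.67, adjusted p = 0.00413). Runx2 stood at 6.31 and 7.90 TPM in BaP and 38.1 and 42.6 in MAR1INT (log2 change 2.36, adjusted p = 0.00657). Both were low in BaP. The basophil factors Gata2 (log2 change 1.05, adjusted p = 0.0140), Cebpa (324 and 365 against 699.6 and 635 TPM, log2 change 0.95, adjusted p = 0.0106) and Stat6 (log2 change 1.36, adjusted p = 0.00695) were higher. Spi1 (PU.1) stood at 129 and 138 TPM in BaP and 279 and 306 in MAR1INT (log2 change 1.12, adjusted p = 0.00742), and the helix-loop-helix inhibitors Id1 (log2 change 1.66) and Id2 (log2 change 1.90) were higher. Ikzf1, Runx1, Gata1 and Gfi1b were not called (adjusted p from 0.298 to 0.979), and Gata1 lies within the interval of another entry, Btbd35f10. Myb, which keeps progenitors dividing, was lower, at 159 and 146 TPM in BaP and 17.8 and 9.21 in MAR1INT (log2 change -3.47, adjusted p = 0.00491). Cebpe, Klf1 and Lmo4 were the other members that were lower, and the calls of Cebpe and Klf1 were each lost in 5 of 14 alternatives. No factor was called without BaP replicate 1 or without replicate 2.

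Of 19 tested stem and progenitor genes 1 was higher and 11 were lower, with a median of -1.14. The list holds Cd34 and Kit, which the gates bear on. Beside these, Muc13, a membrane mucin, stood at 88.7 and 98.4 TPM in BaP and 12.8 and 10.2 in MAR1INT (log2 change -2.93, adjusted p = 0.00413). Angpt1, a niche ligand, stood at 58.8 and 54.2 TPM in BaP and 8.50 and 7.50 in MAR1INT (log2 change -2.68, adjusted p = 0.00448). Nkg7, a granule membrane protein, stood at 371 and 380.1 TPM in BaP and 32.3 and 51.5 in MAR1INT (log2 change -3.17, adjusted p = 0.00413). Cd27, Cd38 and Ly6a (Sca-1) were called lower and listed at 0 in both MAR1INT libraries. Cd38 was low in BaP too (1.21 and 1.21 TPM) and changed sign after quantile normalization, and Cd27 shares its interval with E130112N10Rik. The only member called higher was Gata2. Meis1 and Erg, factors of stem cells, were not called (adjusted p = 0.575 and 0.390). With either BaP library left out, 4 members stayed lower.

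Genes of DNA replication were lower in MAR1INT almost throughout. Of 50 tested S phase genes 46 were called lower and 1 higher, with a median change of -2.94, and 4 of those that were lower were listed at 0 in both MAR1INT libraries. Pcna, the sliding clamp of the replication fork, stood at 412 and 434 TPM in BaP and 115 and 109 in MAR1INT (log2 change -1.91, SE 0.13, adjusted p = 0.00413). Of the MCM helicase subunits, Mcm2 stood at 49.2 and 53.1 TPM in BaP and 4.05 and 3.06 in MAR1INT (log2 change -3.53, adjusted p = 0.00419). Mcm3 stood at 117 and 105 TPM in BaP and 15.6 and 9.58 in MAR1INT (log2 change -3.07, adjusted p = 0.00460) and Mcm5 at 125 and 125 TPM in BaP and 19.3 and 14.02 in MAR1INT (log2 change -2.85, adjusted p = 0.00413). Both MAR1INT libraries were well below both BaP libraries for each of these genes. Pole, the catalytic subunit of the leading strand polymerase, stood at 64.1 and 52.4 TPM in BaP and 1.34 and 1.76 in MAR1INT (log2 change -4.54, adjusted p = 0.00413). Lig1, which joins Okazaki fragments, stood at 154 and 135 TPM in BaP and 3.85 and 10.1 in MAR1INT (log2 change -4.31, adjusted p = 0.00519). Gins1 (49.6 and 30.4 TPM in BaP) and Rfc4 (34.96 and 23.3) were listed at 0 in both MAR1INT libraries. Enzymes that supply nucleotides were lower as well, such as Rrm2 (206 and 203 against 36.5 and 7.95 TPM, log2 change -3.49, adjusted p = 0.0203) and Tyms (log2 change -1.89, adjusted p = 0.0165). Rfc2, a clamp loader subunit, was the exception, at 283 and 253 TPM in BaP and 391 and 371 in MAR1INT (log2 change 0.51, adjusted p = 0.0440), and this call was lost in 11 of 16 alternatives, including each library left out. Summed over the list, S phase transcripts took 3639 and 3409 TPM in BaP and 1067 and 866 in MAR1INT. Only 5 members were called without BaP replicate 1 and 5 without replicate 2, at medians of -2.85 and -2.92. Of the 15 members with a mean of 50 TPM or more, a limit chosen after seeing the data, 14 were lower.

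The promoter of Mcm3 is printed as that of the called S phase gene with the most matches to the motifs searched, among the promoters considered. The capitals mark CCAAT or its reverse complement, the NF-Y motif, and an E2F motif (TTTCCCGC, TTTGGCGC, TTTCGCGC or TTTGCCGC on either strand). The Mcm3 promoter lies at chr1:20820263-20820562 on the minus strand and holds 3 CCAAT and 2 E2F matches.
Mcm3: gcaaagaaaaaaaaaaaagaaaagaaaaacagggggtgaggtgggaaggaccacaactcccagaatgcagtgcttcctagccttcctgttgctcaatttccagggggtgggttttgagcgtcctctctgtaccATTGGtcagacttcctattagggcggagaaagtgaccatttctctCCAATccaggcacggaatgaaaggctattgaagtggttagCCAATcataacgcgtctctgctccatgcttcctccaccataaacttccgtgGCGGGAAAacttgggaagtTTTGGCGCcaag
The E2F motifs occurred in 4.52% of all promoters of tested genes, in 7.32% of those of genes called lower, in 1.57% of those of genes called higher, and in 30.8% of the 39 S phase promoters at hand.

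Genes of G2 and mitosis were lower to a like extent. Of 60 tested 57 were called lower and 0 higher, with a median of -2.71. Mki67, the proliferation marker, stood at 438 and 490.4 TPM in BaP and 101 and 69.3 in MAR1INT (log2 change -2.45, SE 0.22, adjusted p = 0.00448). Top2a, the topoisomerase that untangles chromosomes, stood at 308 and 326 TPM in BaP and 51.7 and 24.8 in MAR1INT (log2 change -3.11, adjusted p = 0.00643). Ube2c, the ubiquitin-conjugating enzyme of the anaphase-promoting complex, stood at 302 and 313 TPM in BaP and 52.1 and 48.5 in MAR1INT (log2 change -2.59, adjusted p = 0.00389). Transcripts of these 3 genes remained present in MAR1INT, each at more than 20 TPM in both libraries. Cdk1 stood at 65.8 and 61.6 TPM in BaP and 9.29 and 5.50 in MAR1INT (log2 change -2.98, adjusted p = 0.00551). Its partner Ccnb1 (cyclin B1) stood at 97.1 and 128 TPM in BaP and 4.10 and 7.09 in MAR1INT (log2 change -4.13, adjusted p = 0.00413). Birc5 (survivin), a subunit of the chromosomal passenger complex, stood at 108 and 89.4 TPM in BaP and 2.58 and 0 in MAR1INT (log2 change -5.71, adjusted p = 0.00643). All 3 were below 10 TPM in both MAR1INT libraries. Kif22, a chromosome kinesin, stood at 45.8 and 56.7 TPM in BaP and 1.36 and 1.09 in MAR1INT (log2 change -4.55, adjusted p = 0.00413). Pttg1 (securin) was the member that differed least, at 21.4 and 21.8 TPM in BaP and 18.4 and 18.9 in MAR1INT (adjusted p = 0.559). The calls numbered 3 without BaP replicate 1 and 3 without replicate 2, with medians of -2.78 and -2.72.

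The Top2a promoter was, among those considered, the called mitotic gene's promoter with the most matches. The capitals mark CCAAT or its reverse complement, TTTGAA or its reverse complement (the cell cycle homology region, CHR) and AGATAA. It lies at chr11:99024140-99024439 on the minus strand, with 6 CCAAT, 2 CHR and 1 GATA match.
Top2a: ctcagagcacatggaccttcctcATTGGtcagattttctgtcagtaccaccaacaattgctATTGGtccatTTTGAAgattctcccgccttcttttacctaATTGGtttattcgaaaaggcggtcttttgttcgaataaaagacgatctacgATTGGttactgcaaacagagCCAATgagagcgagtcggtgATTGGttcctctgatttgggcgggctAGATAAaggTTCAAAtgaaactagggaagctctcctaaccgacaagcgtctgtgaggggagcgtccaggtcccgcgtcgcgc
The CHR motif occurred in 12.7% of all promoters, in 18.8% of those of genes called lower, in 8.96% of those called higher and in 70.6% of the 51 mitotic promoters at hand. CCAAT occurred in 39.9% of all, 47.3% of those called lower, 37.2% of those called higher, 61.5% of the S phase promoters and 76.5% of the mitotic ones.

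CDK inhibitor and antiproliferative genes were more often higher than lower. Of 22 tested 10 were higher, 2 lower and 10 not called, with a median of 0.91. Cdkn1b (p27) stood at 32.4 and 28.3 TPM in BaP and 113 and 92.9 in MAR1INT (log2 change 1.72, adjusted p = 0.00634). Rbl2 (p130), the pocket protein of resting cells, stood at 99.4 and 97.6 TPM in BaP and 401 and 308 in MAR1INT (log2 change 1.82, adjusted p = 0.00506). Btg1, an antiproliferative gene, had 30.2 and 32.9 TPM in BaP and 152 and 149.6 in MAR1INT (log2 change 2.22, adjusted p = 0.00413). None of these genes overlapped between the groups. Foxo1, a factor of quiescence, stood at 6.69 and 5.51 TPM in BaP and 43.1 and 38.5 in MAR1INT (log2 change 2.56, adjusted p = 0.00579). Sesn1, a stress-induced gene, was at 39.6 and 25.5 TPM in BaP and 117 and 121 in MAR1INT (log2 change 1.87, adjusted p = 0.00887). Rbl1 (p107), itself a gene of cycling cells, was lower (49.3 and 54.05 against 11.6 and 8.89 TPM, log2 change -2.24, adjusted p = 0.00636), and Cdkn1a (p21), with 3.29 and 2.38 TPM in BaP, was at 0 in both MAR1INT libraries, a call lost after quantile normalization. Cdkn2d (p19) was not called (adjusted p = 0.251). Of 23 E2F factors and cyclins 12 were lower and 0 higher. E2f1, an activator of S phase genes, stood at 13.3 and 16.4 TPM in BaP and 1.44 and 0.103 in MAR1INT (log2 change -3.26, adjusted p = 0.0118). Cdk4, the cyclin D kinase, stood at 191 and 165 TPM in BaP and 28.4 and 40.1 in MAR1INT (log2 change -2.36, adjusted p = 0.00491). Without BaP replicate 1 the inhibitors called higher numbered 2 and the E2F and cyclin genes called lower 2, and without replicate 2 they numbered 1 and 2.

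**Figure D3:**
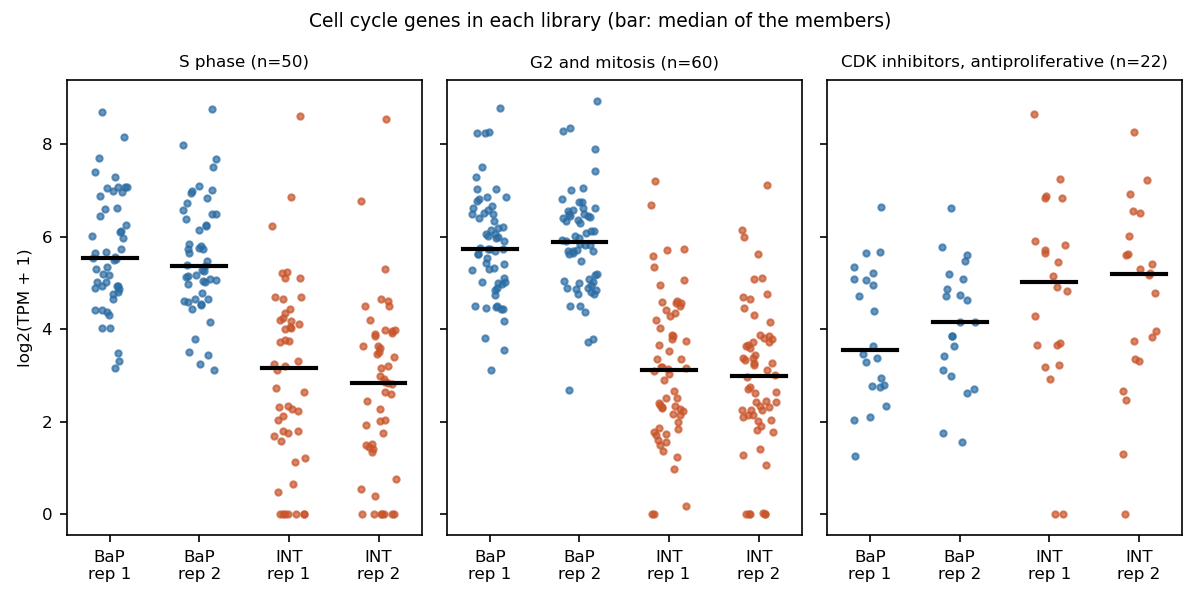
Each point is 1 member of the S phase, the G2 and mitosis and the CDK inhibitor list, as log2(TPM + 1) in each library (INT stands for MAR1INT), and the bar is the median of the members. Both cell cycle lists lie lower in the MAR1INT libraries, with median changes of -2.94 and -2.71, and the inhibitors lie higher (0.91).

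DNA repair and chromatin genes were lower where called, with a few exceptions. Of 30 tested repair and checkpoint genes 22 were lower and 0 higher, with a median of -2.57. Fancd2, a protein of crosslink repair, stood at 35.9 and 25.1 TPM in BaP and 0.365 and 0 in MAR1INT (log2 change -4.73, adjusted p = 0.00425). Its partner Fanci was lower too (log2 change -4.53, adjusted p = 0.00443). Brca1, which acts in repair by homologous recombination, stood at 20.3 and 21.1 TPM in BaP and 3.03 and 2.08 in MAR1INT (log2 change -2.62, adjusted p = 0.00840). Of 33 chromatin genes 12 were lower and 3 higher. H2ax, the histone variant of damage signalling, stood at 790 and 823 TPM in BaP and 177 and 135 in MAR1INT (log2 change -2.37, adjusted p = 0.00413). H2az1, another variant, stood at 787 and 808 TPM in BaP and 208 and 224 in MAR1INT (log2 change -1.88, adjusted p = 0.00413). Dnmt1, the maintenance DNA methyltransferase, stood at 127 and 123 TPM in BaP and 41.5 and 24.5 in MAR1INT (log2 change -1.93, adjusted p = 0.0105). The polycomb methyltransferases parted: Ezh2 was lower (60.1 and 61.8 against 29.7 and 35.3 TPM, log2 change -0.89, adjusted p = 0.0270) and Ezh1, its counterpart in resting cells, was higher (13.98 and 17.1 against 36.9 and 41.01, log2 change 1.28, adjusted p = 0.0190). In fits lacking BaP replicate 1 or replicate 2 the repair genes called lower numbered 4 and 4 and the chromatin genes 3 and 3.

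Replication-dependent histone transcripts took 15.3% and 17.7% of all TPM in BaP and 8.29% and 7.86% in MAR1INT. Of 66 tested histone genes 41 were lower and 1 higher, with a median of -1.18. The linker histone H1f5 stood at 1022 and 977 TPM in BaP and 244 and 154 in MAR1INT (log2 change -2.36, adjusted p = 0.00524), while H4c4, among the most abundant, stood at 6952 and 10067 TPM in BaP and 4965 and 5303 in MAR1INT and was not called (adjusted p = 0.0719). Many of these genes are near-identical, and the split between copies is uncertain: H2ac19 was listed at 3185 and 0.263 TPM in the BaP duplicates and at 2.42 and 1957 in the MAR1INT duplicates. Because TPM sums to the same total in every library, a smaller histone share raises the values of other genes by construction. With histone genes left out and the rest rescaled, 1037 genes were called higher and 2176 lower, and the median change of all genes was -0.27. In fits lacking BaP replicate 1 or 2 the histone genes called lower numbered 5 and 4.

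Genes of growth were lower where called. Of 45 ribosome biogenesis genes 22 were lower and 0 higher, with a median of -1.40. Nop10, a pseudouridylation complex subunit, stood at 166 and 103 TPM in BaP and 14.8 and 21.6 in MAR1INT (log2 change -2.80, adjusted p = 0.00643). Nop56 stood at 128 and 99.8 TPM in BaP and 42.8 and 28.2 in MAR1INT (log2 change -1.68, adjusted p = 0.0129). Fbl (fibrillarin), the methyltransferase of the same nucleolar particle, stood at 201 and 115 TPM in BaP and 55.8 and 48.5 in MAR1INT (log2 change -1.53, adjusted p = 0.0206). Npm1 was not called (adjusted p = 0.0533). The proteins of the ribosome itself did not follow. Of 53 cytosolic ribosomal protein genes 9 were lower (17.0%) and 4 higher (7.55%), against 18.1% and 12.1% of all tested genes. Their median was -0.04, and they summed to 143087 and 130984 TPM in BaP and 126611 and 142950 in MAR1INT. Their split moved with the scaling, to 15 lower and 1 higher with FPKM and 6 and 3 after quantile normalization, where the median was 0.07, and fell to 4 and 0 with no filter on low genes and 3 and 1 with no variance trend. Rpl3 stood at 2299 and 2072 TPM in BaP and 708 and 576 in MAR1INT (log2 change -1.77, adjusted p = 0.00460). Rpl38 stood at 2437 and 2212 TPM in BaP and 4179.5 and 4623 in MAR1INT (log2 change 0.92, adjusted p = 0.0129). Rps27 stood at 14.7 and 12.8 TPM in BaP and 37.3 and 6446 in MAR1INT, a gap between the MAR1INT duplicates at a gene with a near-identical copy, Rps27rt, and its level is uncertain. In fits without BaP replicate 1 or 2 the ribosome biogenesis genes called lower numbered 1 and 2, and no ribosomal protein gene was called.

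In the mitochondrion, 17 of 50 oxidative phosphorylation genes were lower and 0 higher (median -0.67), which rose to 29 lower with FPKM and 26 after quantile normalization and fell to 10 with no filter on low genes and 8 with no variance trend. In addition, 13 of 49 mitochondrial ribosome genes were lower and 0 higher (median -0.97). Cycs (cytochrome c) stood at 155 and 87.2 TPM in BaP and 30.2 and 26.4 in MAR1INT (log2 change -2.004, adjusted p = 0.0120). Atp5b, the catalytic beta subunit of ATP synthase, stood at 514 and 513 TPM in BaP and 295 and 286 in MAR1INT (log2 change -0.82, adjusted p = 0.0109). Cox4i1, a subunit of cytochrome c oxidase, was not called (adjusted p = 0.917). Glycolysis genes were divided, with 8 higher and 5 lower of 23. The glucose transporter Slc2a3 stood at 18.3 and 26.6 TPM in BaP and 103 and 78.1 in MAR1INT (log2 change 1.97, adjusted p = 0.00907). Aldoa, aldolase, stood at 537 and 554 TPM in BaP and 1499.6 and 1249 in MAR1INT (log2 change 1.33, adjusted p = 0.00607). Gapdh, the next dehydrogenase of the pathway, was lower and stood at 3960.1 and 4301 TPM in BaP and 1763 and 1769.8 in MAR1INT (log2 change -1.22, adjusted p = 0.00609). Pgk1, which follows it, stood at 478 and 434 TPM in BaP and 233 and 179 in MAR1INT (log2 change -1.15, adjusted p = 0.0116). Enzymes of the same pathway differed in opposite directions. Of 22 cholesterol synthesis genes 10 were lower and 0 higher, with a median of -1.68. Fdps, which makes farnesyl diphosphate, stood at 26.2 and 29.5 TPM in BaP and 0 and 1.26 in MAR1INT (log2 change -4.26, adjusted p = 0.00690). Sqle, squalene epoxidase, stood at 14.2 and 10.2 TPM in BaP and 0 and 0.117 in MAR1INT (log2 change -3.62, adjusted p = 0.00519). With either BaP library left out, no oxidative phosphorylation or glycolysis gene was called, 1 mitochondrial ribosome gene was lower and 3 cholesterol genes were lower.

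Chaperones of the endoplasmic reticulum (ER), where secreted proteins fold, were lower. Of 29 tested ER and unfolded protein response genes 17 were lower and 1 higher, with a median of -1.26. Calr (calreticulin) stood at 1587 and 1786 TPM in BaP and 250.2 and 161 in MAR1INT (log2 change -3.06, SE 0.24, adjusted p = 0.00413). Hspa5 (BiP), the main ER chaperone, stood at 605 and 939.7 TPM in BaP and 164 and 146 in MAR1INT (log2 change -2.28, adjusted p = 0.00561). The disulfide isomerase Pdia6 stood at 408 and 351 TPM in BaP and 77.4 and 41.9 in MAR1INT (log2 change -2.71, adjusted p = 0.00653). These are abundant transcripts in BaP. Sdf2l1, a partner of BiP, stood at 65.8 and 70.1 TPM in BaP and 4.16 and 2.50 in MAR1INT (log2 change -4.02, adjusted p = 0.00413). For none of these did the groups overlap. The transcription factors of the response, Xbp1, Atf4 and Ddit3, were not called (adjusted p = 0.172, 0.499 and 0.182), and Chac1, a target of Atf4, was the member that was higher (8.46 and 6.77 against 21.1 and 24.03 TPM, log2 change 1.46, adjusted p = 0.0239). CCAAT occurred in 84% of the 25 ER gene promoters at hand, against 39.9% of all. Without BaP replicate 1 or replicate 2 the members called lower numbered 2 and 1.

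Heat shock chaperones, the mitochondrial pair Hspd1 and Hspe1 included (14 lower and 0 higher of 30, median -0.95) and proteasome subunits (11 lower and 0 higher of 38, median -0.61) held calls in 1 direction as well. Hsp90ab1 stood at 403 and 386 TPM in BaP and 119.7 and 129 in MAR1INT (log2 change -1.66, adjusted p = 0.00413). The constitutive member Hspa8 was not called (adjusted p = 0.316). In fits lacking BaP replicate 1 or 2 the heat shock genes called lower numbered 1 and 1, and no proteasome gene was called. Of 35 lysosome genes 5 were higher (14.3%) and 7 lower (20%), shares near those over all tested genes (12.1% and 18.1%). Ctsd, cathepsin D, stood at 282 and 316 TPM in BaP and 981 and 842 in MAR1INT (log2 change 1.60, adjusted p = 0.00467). Ctsh, cathepsin H, stood at 81.96 and 73.3 TPM in BaP and 2.79 and 13.4 in MAR1INT (log2 change -3.41, adjusted p = 0.0197). Of 18 MHC class I and peptide loading genes 4 were higher and 4 lower (22.2% each), and 3 of the 4 lower ones, Calr, Canx and Pdia3, are ER chaperones counted above. B2m was not called (adjusted p = 0.519). In fits lacking BaP replicate 1 or 2, no lysosome or MHC class I gene was called higher, and in each of these fits 2 lysosome genes and 1 MHC class I gene were lower.

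Of 30 BCL2 family and death genes 3 were higher (10%) and 7 lower (23.3%), with a median of 0.21. These shares were near those over all tested genes (12.1% and 18.1%), and 4 of the lower members were listed at 0 in both MAR1INT libraries. Bcl2 itself stood at 16.1 and 19.4 TPM in BaP and 5.78 and 2.27 in MAR1INT (log2 change -1.99, adjusted p = 0.0332). The genes Bcl2a1a, Bcl2a1b and Bcl2a1d, near-identical copies of an antiapoptotic gene whose separate levels are uncertain, were listed at 0 in both MAR1INT libraries. Mcl1 stood at 36.2 and 38.2 TPM in BaP and 55.5 and 95.8 in MAR1INT and was not called (adjusted p = 0.0677). The proapoptotic Bbc3 (Puma) stood at 1.90 and 1.08 TPM in BaP and 8.75 and 6.71 in MAR1INT (log2 change 1.82, adjusted p = 0.0260). With either BaP library left out no member was called higher and 4 were lower.

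Markers of other marrow cells were present in BaP and differed between the groups. Of 11 tested eosinophil markers 6 were lower and 3 higher. Prg2, the major basic protein, stood at 1584 and 934 TPM in BaP and 1.95 and 70.05 in MAR1INT (log2 change -6.39, adjusted p = 0.0319), far apart between the MAR1INT duplicates. Epx (64.9 and 33.3 TPM in BaP) and Prg3 (96.2 and 33.3), granule proteins of eosinophils, were listed at 0 in both MAR1INT libraries. The 3 markers that were higher, Ccr3, Siglecf and Alox15, were also counted among basophil genes. Antigen presentation genes of dendritic cells and macrophages were lower. H2-Aa, a class II chain, stood at 172 and 63.98 TPM in BaP and 0 and 0.952 in MAR1INT (log2 change -6.25, adjusted p = 0.00519). Cd74, the invariant chain, stood at 353 and 117 TPM in BaP and 3.50 and 11.5 in MAR1INT (log2 change -4.77, adjusted p = 0.0109). These eosinophil and MHC class II genes were higher in BaP replicate 1 than in replicate 2. Of 18 monocyte and macrophage markers 14 were lower and 1 higher. Csf1r, a macrophage growth factor receptor, stood at 39.4 and 29.6 TPM in BaP and 1.89 and 6.17 in MAR1INT (log2 change -2.95, adjusted p = 0.0164). Of 13 dendritic cell markers 9 were lower and 1 higher, and their summed level was 1044 and 412 TPM in BaP and 72.8 and 84.3 in MAR1INT. In fits without BaP replicate 1 or replicate 2 the lower ones numbered 3 and 3 for eosinophils, 3 and 3 for monocytes and 3 and 3 for dendritic cells. The part of such cells in the differences between the groups was not tested.

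Of 20 tested neutrophil markers 6 were lower in MAR1INT (30%), 1 was higher and 13 were not called. The higher one was Cxcr2, and the lower ones were Mpo, Ctsg, Ms4a3, Elane, Prtn3 and Fcnb. Mpo, myeloperoxidase, stood at 1674 and 2138 TPM in BaP and 113 and 65.1 in MAR1INT (log2 change -4.45, SE 0.30, adjusted p = 0.00413). Ms4a3, a gene of granulocyte-monocyte progenitors, stood at 497 and 482 TPM in BaP and 9.14 and 15.97 in MAR1INT (log2 change -5.22, adjusted p = 0.00389). Elane, neutrophil elastase, stood at 46.2 and 123 TPM in BaP and 14.6 and 13.1 in MAR1INT (log2 change -2.36, adjusted p = 0.0236). Camp, Ltf and S100a8 were among those not called. Camp stood at 166 and 648 TPM in BaP and 103 and 109 in MAR1INT (adjusted p = 0.114) and was called lower in 4 of 16 alternatives, among them the fit without BaP replicate 1. Ltf (lactoferrin) stood at 211 and 642 TPM in BaP and 244 and 174 in MAR1INT (adjusted p = 0.295). S100a8, a calcium-binding protein of mature neutrophils, stood at 1298 and 2798 TPM in BaP and 1867 and 1665 in MAR1INT (adjusted p = 0.843). These 3 genes were highest in BaP replicate 2 and were present in all 4 libraries. The neutrophil markers summed to 7154 and 13175 TPM in BaP and 4945 and 4261 in MAR1INT. With BaP replicate 1 left out 3 neutrophil markers were lower, and with replicate 2 left out 2. The values of single hemoglobin genes were uneven between duplicates, with Hba-a1 at 4.36 and 1661 TPM in BaP and 1976 and 1213 in MAR1INT. Its copy Hba-a2 stood at 1467 and 4.48 TPM in BaP and 10.9 and 1.80 in MAR1INT. In each BaP library 1 copy was high where the other was low, and the split between these near-identical genes is uncertain. Markers of B cells were low, at no more than 35.3 TPM in sum in any of the 4 libraries. Of the lymphoid markers, those of T cell receptor signalling, Cd3d (1.77 and 4.03 TPM in BaP) and Lck (3.36 and 2.52), were listed at 0 in MAR1INT, calls that were lost after quantile normalization and, for Cd3d, also with no filter on low genes. Cd7, Il7r and Skap1, genes also known from lymphoid cells, were among the largest rises.

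**Figure D4:**
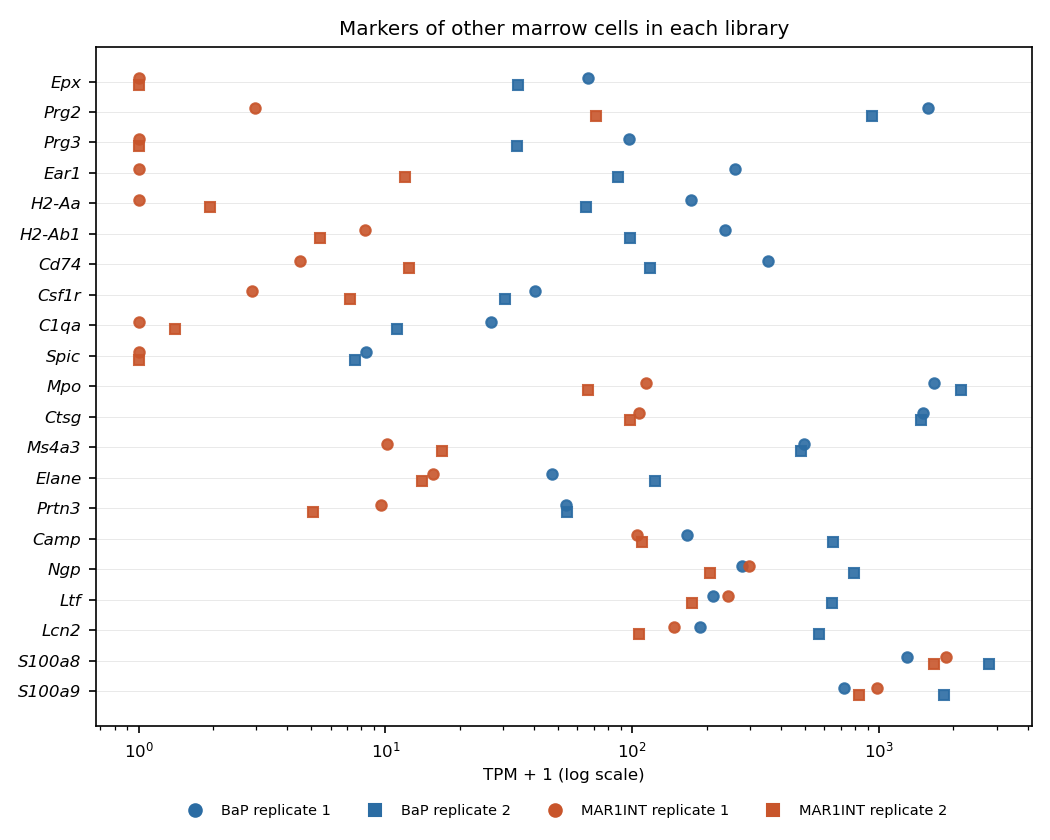
TPM + 1 on a log axis for markers of eosinophils (Epx to Ear1), antigen-presenting cells and macrophages (H2-Aa to Spic) and neutrophils (Mpo to S100a9) in each library, with symbols as in the plot of basophil genes. The eosinophil and presentation genes and Mpo, Ctsg, Ms4a3, Elane and Prtn3 sit lower in MAR1INT, while Camp, Ngp, Ltf, Lcn2, S100a8 and S100a9 overlap or nearly so, with BaP replicate 2 highest.

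**Figure D5:**
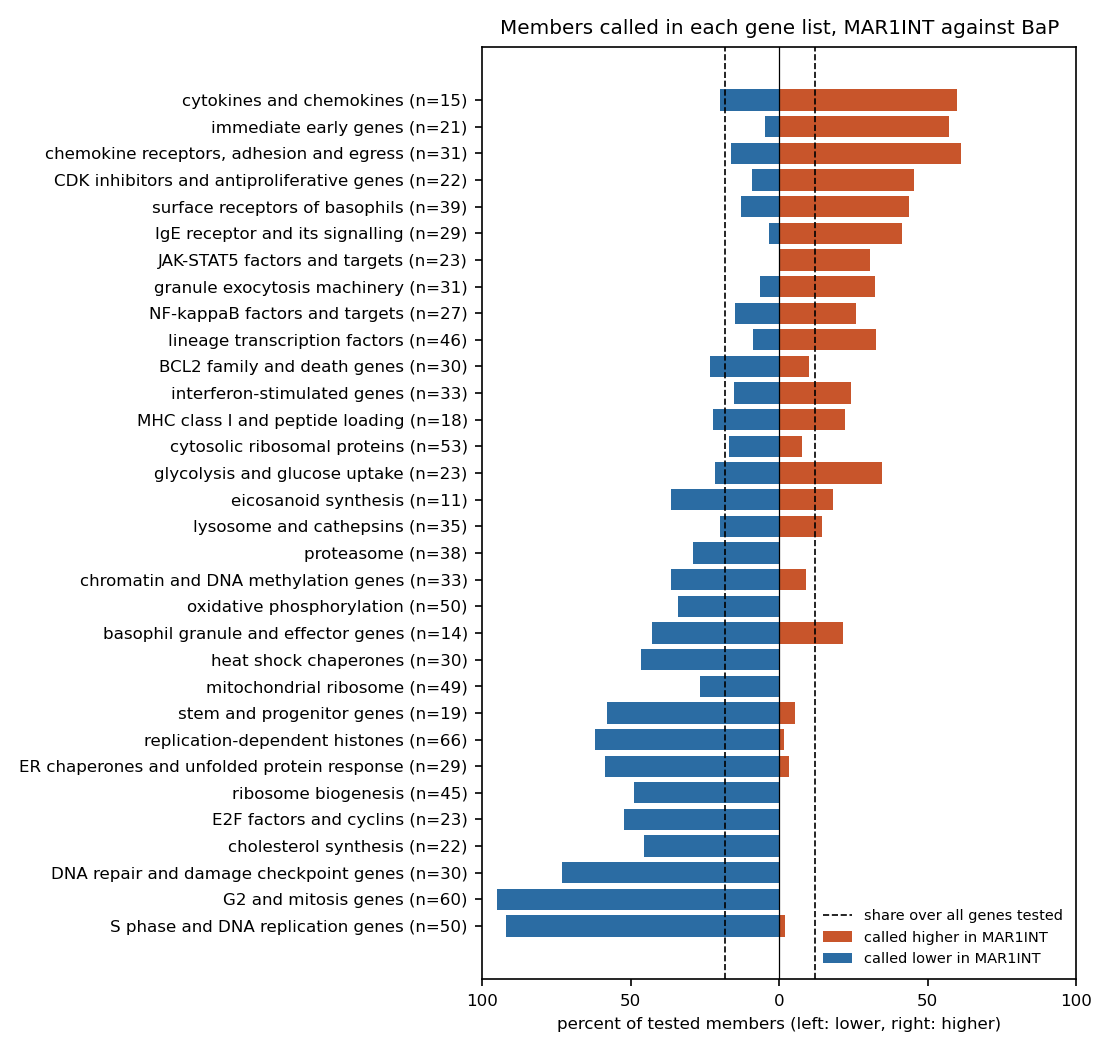
Percent of the tested members of each gene list other than the cell type markers called higher (orange, to the right) or lower (blue, to the left) in MAR1INT, with the number tested in brackets and the shares over all 10991 genes (12.1% higher, 18.1% lower) as dashed lines. Cytokine, receptor, adhesion and inhibitor lists exceed the dashed line at right, and the S phase, mitosis and repair lists exceed the one at left most.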

How the data were processed

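RNA from sorted bone marrow cells of 2 BaP and 2 MAR1INT libraries was extracted with TRIzol LS and made into capture-enriched libraries, per the labels' protocols. The authors trimmed reads with Trimmomatic, aligned them with HISAT2 to mm10 and summarised genes with StringTie, per the submitters' processing notes. Versions, options, the annotation release and the use of strand are not given in the sources used here. Each deposited table lists coverage, FPKM and TPM per gene, per the file headers.

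From these, rows of 1 gene ID were summed, and log2(TPM + 1) was fitted with limma 3.58.1 (R 4.3.3; eBayes with a trend, two-sided, Benjamini-Hochberg adjustment over all 10991 genes with at least 1 TPM in 2 of the 4 libraries). The fit had 2 residual degrees of freedom, to which the shrinkage added a median of 3.02. The aligned gigabases were derived from the deposited coverage and FPKM, whose ratio depends on the library's size, so read counts and counting intervals are unknown. Of 24532 gene IDs, 24462 matched a RefSeq symbol and 70 did not, and 99.4% of the matched genes overlapped their interval in the RefSeq annotation of GRCm38.p6, an mm10 assembly. No mitochondrial genes are listed. The fit was also run on simulated data with known changes. These gave both groups the same normal spread and no excess of zeros. They therefore cannot show how the wider MAR1INT spread or its zeros bear on the calls. Tables used pandas 2.3.3 and numpy 2.4.6 under Python 3.11.15, and figures matplotlib 3.10.9.

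The members and the gene lists were chosen with earlier results of these data known. Named genes are the genes of the sort, the 15 largest rises and 15 largest falls, up to 4 called members per list and direction, and the key genes of the short basophil lists. The largest rises and falls were taken among called genes with at least 10 TPM in the higher group and no overlap between the groups' libraries. Small RNAs, pseudogenes and histones were left out of them. Other genes named were chosen after their values were seen. Some members counted in the lists are not reported here by name. Promoters, from RefSeq, were available for 8627 tested genes, and 8129 of them start within 100 bases of the deposited gene end. Motifs were searched on both strands. Beyond those spelled out with the printed promoters, they were CACGTG (the E-box), TTGCGCAA and TTGCACAA (C/EBP), TTCCNGGAA (STAT) and GGGGCGGGG (SP and KLF factors). No motif contains another. A match describes letters in this window only. Alternatives were added values of 0.1 and 5, no filter, a mean of 5 TPM or more, FPKM, quantile normalization, median-of-ratios scaling, TPM without histone genes, all 6 libraries, no variance trend, a replicate block, each library left out, and, added after seeing the data, a mean of 50 TPM or more.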

Additional observations from a re-analysis of the deposited data

How the results depend on the processing

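The count of 3325 called genes (1333 higher, 1992 lower) stayed within a factor of 1.5 under the other scalings, units, added values, a mean of 5 TPM or more, all 6 libraries and no variance trend, from 2653 to 3648. With no filter on low genes, 2046 of 17860 genes were called (832 higher, 1214 lower), and with a mean of 50 TPM or more, chosen after seeing the data, 1347 of 2532 (820 higher, 527 lower), where the lower number follows from fewer genes tested. Of 37 gene lists with at least 5 calls, the calls fell by over 1.5 times in 17 with no filter, 3 with no variance trend and 35 without either BaP library. With each library left out in turn, 650 to 4615 genes were called, 82 to 1818 higher and 568 to 2797 lower. The low ends came from leaving out a BaP library, which leaves the MAR1INT pair, with the wider spread, as the only estimate of error. Same-numbered libraries did not deviate together (correlation -0.0990) and the labels read here tie them to no shared animal or sort, so the numbers were not used as pairs; with the replicate block 3546 genes were called (1282 higher, 2264 lower). A change of sign was counted only for a gene called with the settings used above or in the alternative. By that count Cd38 alone of 424 named genes changed sign, after quantile normalization (0.0319, adjusted p = 0.937 in limma). Calls were lost for 245 and 248 of them without BaP replicate 1 and 2, for 77 with no filter, for 37 after quantile normalization and for 12 with FPKM. Depth in reads is unknown, and values near 0 TPM, more common in MAR1INT, limit folds of low genes.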

Other observations

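Small structured RNAs were among the most abundant entries and took a larger share of the MAR1INT libraries. These genes were singled out after their values were seen. Rpph1, the RNA of RNase P, which trims transfer RNA, stood at 7491 and 9887 TPM in BaP and 15116 and 18258 in MAR1INT (log2 change 0.95, adjusted p = 0.0328 in limma), and this call was lost in 9 of 16 alternatives, among them FPKM, quantile normalization and leaving out any 1 of 3 libraries (BaP replicate 1, BaP replicate 2 or MAR1INT replicate 2). Rmrp, the RNA of RNase MRP, stood at 9791 and 14423 TPM in BaP and 21027 and 22067 in MAR1INT and was not called (adjusted p = 0.0536). The small nucleolar RNAs Snora64 (log2 change 1.11, adjusted p = 0.0184), Snord15b (1.49, 0.0164) and Snord22 (1.54, 0.0220) were higher. Of 97 tested genes of this class only these 3 were higher, against 12.1% of all tested genes. In the same class 20 were lower, near the share of 18.1% over all tested genes. Snord16a was one of the lower ones, at 3293 and 2868 TPM in BaP and 309.9 and 1126 in MAR1INT (log2 change -2.38, adjusted p = 0.0402). None of these small nucleolar RNAs was called without BaP replicate 1 or without replicate 2. The class as a whole took 3.69% and 3.95% of TPM in BaP and 4.54% and 6.12% in MAR1INT, and protein-coding genes took 91.2% and 90.3% against 88.3% and 86.1%. TPM is per unit of length, so these short genes weigh more in it than in a count of reads.

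Families read by their symbols, also after seeing the values, showed gene groups beyond those described. Of 20 tested nucleoporin genes, which build the pores of the nuclear envelope, 9 were lower and 0 higher, with a median log2 change of -1.33. Nup93, of the inner ring, stood at 55.2 and 37.2 TPM in BaP and 2.94 and 4.38 in MAR1INT (log2 change -3.33, adjusted p = 0.00579). Nup85, of the outer ring, stood at 101 and 82.95 TPM in BaP and 21.3 and 12.9 in MAR1INT (-2.40, 0.00757). Of 16 lysine demethylase genes 8 were higher and 0 lower, with a median of 0.77. Kdm7a stood at 8.62 and 10.9 TPM in BaP and 35.04 and 24.5 in MAR1INT (log2 change 1.50, adjusted p = 0.0250). Over the alternatives that keep all 4 libraries and all 20 nucleoporin genes, 7 (no filter) to 13 (FPKM) of them were lower. Demethylase genes called higher numbered 5 with FPKM and 5 without histone genes (1 lower in each), 4 with no filter and 3 with no variance trend. Of 24 tested kinesin genes 12 were lower, 9 were not called and 3 were higher, Kif21b (log2 change 1.97, adjusted p = 0.00413), Kif3b (1.24, 0.0189) and Kif2a (1.03, 0.0179). No nucleoporin or demethylase gene was called without BaP replicate 1 or without replicate 2.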
